A study of Mus musculus with 12 samples.

Results

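The genes described are 10 ETS transcription factors that do not belong to the PEA3 group: Ets1, Ets2, Elf1, Elf3, Elf4, Ehf, Elk3, Etv6, Gabpa and Erf. They were chosen by name from the ETS family, with earlier results of these data known, and are not all of its genes outside that group. All 10 were found among the 31017 gene symbols counted in each library. 9 of them were tested among 13763 genes with enough reads, and Ehf was not, since it had 0 to 7 counts per library. RNA was measured in 4T1, a mouse mammary carcinoma line, in 6 groups of 2 libraries, 12 in all. The control was a pool of clones that had received control sgRNA, and clone 1 and clone 2 were each a single clone selected after Cas9 and sgRNA against Etv4, itself a PEA3 factor. All 3 were cultured flat on plastic (2D) and inside gels of collagen I (3D). A difference between a single clone and the pool can come from Etv4 or from any other feature of that clone, and the 2 cannot be told apart. Cells were freed from gels by a collagenase step that 2D cells did not have, and the formats were counted in separate tables, so format, digestion and table cannot be told apart either. The labels name more than 1 collagen concentration and do not say which library had which.

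ETS factors share a winged helix-turn-helix domain that binds DNA around the core GGAA, so members of the family can compete for the same sites. Some activate transcription, such as Ets1, Ets2, Elf1, Elf4 and Gabpa, and others mostly repress it, such as Etv6 and Erf, while Elk3 represses until ERK kinase phosphorylates it. Elf3 and Ehf are found mainly in epithelia, and Ets1 and the PEA3 factors are known regulators of matrix protease genes in carcinoma.

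Libraries held 12.3 to 18.7 M counts in 2D and 26.5 to 33.2 M in 3D. Gm26917 and Gm42418, both predicted genes, took 1.86 to 2.15% of the counts in 2D and 12.4 to 16.9% in 3D. Epithelial carcinoma markers (Epcam, Cdh1 and 4 keratins) summed to 3540 to 4720 CPM (counts scaled to library size) in 2D and 2840 to 3280 in 3D. Leukocyte markers summed to 1.68 to 5.4 CPM in 2D and 7.7 to 11.1 in 3D, with Itgam and Adgre1 at 0 in all libraries. Fibroblast markers summed to 4.11 to 7.39 and 19.9 to 23.8 CPM, with Pdgfrb and Lum at 0 throughout, and endothelial markers to 8.53 to 14.9 and 3.53 to 5.86 CPM, with Emcn at 0 throughout. In 3D, most of the leukocyte sum came from Cd68 (6.99 to 10.3 CPM). Pdgfra (19.7 to 23.2 CPM) made up most of the fibroblast sum there, and Egfl7 (3.11 to 5.38 CPM) most of the endothelial sum. The part of these marker shifts in any result on 3D against 2D was not tested. Etv4, the targeted gene, was at 78.1 and 76 CPM in the 2D control libraries, 49.8 and 49.2 for clone 1, and 49.3 and 46 for clone 2. In 3D its levels were 94.7 and 99.4 for control, 69.9 and 69.1 for clone 1, and 86.6 and 91.5 in clone 2, where it did not pass as lower (-0.12 ± 0.06, adjusted p = 0.12). Clone 1 had Etv4 at -0.64 ± 0.07 in 2D and -0.48 ± 0.06 in 3D (log2), beside medians of -0.38 and -0.43 for the tested genes of its chromosome, 11. The 20 nearest genes tested had medians of -0.54 in 2D and -0.55 in 3D, the latter a larger fall than that of Etv4 itself. With each chromosome centred on its own median, Etv4 still passed as lower in clone 1 in 2D, but not in 3D (-0.003). In clone 2 in 2D Etv4 was at -0.69 ± 0.07, beside a chromosome median of -0.09. A gene-wide count checks a Cas9 cut little, since small insertions or deletions can leave the RNA in place. The labels do not say whether the 2 libraries of a group were separate cultures, so the p-values describe no more than the variation among the sequenced libraries.

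Promoter sequences are shown for 3 of the 5 members that rose in 3D, Elf4, Elk3 and Etv6, to let their ETS core letters be compared. Each is the 250 bases before the RefSeq start (GRCm38.p6), written 5′ to 3′ on the gene's strand, and none overlaps an exon annotated in GENCODE M21. They lie at chrX:48463133-48463382 (minus strand), chr10:93311160-93311409 (minus strand) and chr6:134035450-134035699 (plus strand). Capitals mark a match to AGGAAG or CCGGAAG, extended forms of the ETS core, on either strand.
Elf4 promoter: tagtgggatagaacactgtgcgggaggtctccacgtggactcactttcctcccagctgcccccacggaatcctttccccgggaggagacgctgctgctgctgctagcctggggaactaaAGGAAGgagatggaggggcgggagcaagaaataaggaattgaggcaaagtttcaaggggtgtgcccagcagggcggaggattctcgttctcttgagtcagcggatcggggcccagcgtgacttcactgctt
Elk3 promoter: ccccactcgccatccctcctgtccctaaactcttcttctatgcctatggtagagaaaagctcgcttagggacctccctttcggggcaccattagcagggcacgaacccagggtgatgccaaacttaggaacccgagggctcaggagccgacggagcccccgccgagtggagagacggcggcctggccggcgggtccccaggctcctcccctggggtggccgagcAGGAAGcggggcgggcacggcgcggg
Etv6 promoter: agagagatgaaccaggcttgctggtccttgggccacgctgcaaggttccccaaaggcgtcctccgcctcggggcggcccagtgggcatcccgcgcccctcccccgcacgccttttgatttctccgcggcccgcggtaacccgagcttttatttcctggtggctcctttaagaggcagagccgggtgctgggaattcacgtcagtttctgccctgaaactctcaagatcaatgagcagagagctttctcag
Elf4 has 1 AGGAAG that begins 131 bases before the start, Elk3 has 1 that begins 26 bases before it, and Etv6 has no match to either form. Ets2 and Elf3 also rose in 3D, but their windows overlap annotated exons and are not shown. Neither of these windows has a match to either form. RefSeq windows were found for 8 of the 10 members. AGGAAG, searched on both strands, occurs in 4 of these 8 (Elf4, Elk3, Gabpa and Erf), against 29.5% of 32851 windows of the same length. CCGGAAG occurs in 1 of the 8, Gabpa, 93 bases before its RefSeq start, against 6.91% of windows. That start is 199 bases from the GENCODE start of Gabpa, and all 250 bases of the window lie in GENCODE exons of Atp5j and Gabpa. The core GGAA, which lies inside both forms, occurs in all 8 and in 93.4% of windows, so its presence sets no member apart.

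Levels of different genes were compared per length, as counts per kilobase of exon scaled to the same sum in every library (TPM scale). In control cells in 2D, Ets1 had the highest level of the ETS genes, at 178 TPM, 22.9% of the summed level of the family. Elk3 followed among the members at 106 TPM, then Gabpa at 65.9, Erf at 59.6, Elf1 at 55.7, Ets2 at 39.2, Etv6 at 16.7, Elf3 at 16.3 and Elf4 at 8.4. The libraries of neighbours in that order overlapped for Etv6 and Elf3, and for no other pair. The middle of this order depends on the length used: by longest transcript Elf1, at 66.2, was above Gabpa at 56.1 and Erf at 45.8, and by coding length Erf, at 41.4, was below Ets2 at 53.7. Among the members in control cells in 3D, by exon unions, Elk3 was at 159 TPM and Ets1 at 129, followed by Ets2 at 73.1, Gabpa at 61.6, Elf1 at 57.5, Erf at 55.9, Etv6 at 38.5, Elf4 at 37.6 and Elf3 at 30. There the libraries of Gabpa and Elf1, of Elf1 and Erf, and of Etv6 and Elf4 overlapped. The order of Ets1 and Elk3 in 3D depends on the length used. With exon unions Ets1 was at 0.811 times the level of Elk3 in control, 0.794 in clone 1 and 0.68 in clone 2, but with the longest transcript the ratios were 1.26, 1.23 and 1.05, above 1 in each group. In 2D Ets1 was above Elk3 with each length, at a ratio of 1.68 in control, 1.1 in clone 1 and 1.38 in clone 2 by exon unions. The members tested made up 61.6 to 74.5% of the summed level of the ETS genes in each group. Of 26 ETS genes in the tables, 16 were tested, and the 10 others were at most at 11 counts in any library.

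**Figure D1:**
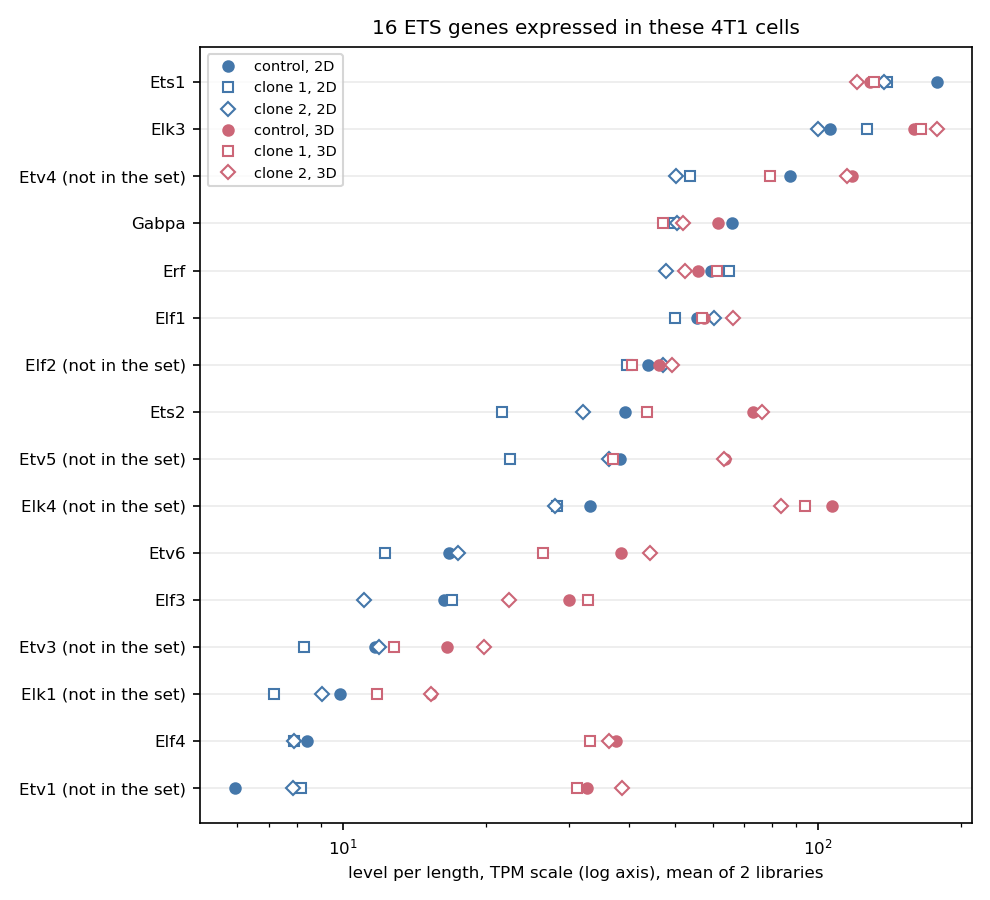
Level per length (TPM scale, log axis) of the 16 ETS genes tested, each point the mean of 2 libraries of a group, blue for 2D and red for 3D, with filled circles for control, open squares for clone 1 and open diamonds for clone 2. Ets1 and Elk3 are highest of the members, and Elf4 moves from 8.4 TPM in 2D control cells to 37.6 in 3D.

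Collagen gel against plastic asks which ETS genes differ with the culture format. Elf4, Etv6, Ets2, Elf3 and Elk3 rose in 3D in control, clone 1 and clone 2, and Ets1 and Gabpa fell in all 3. Elf4 changed most, 4.18-fold in control cells. In control cells 5 members rose and 3 fell, 8 of 9, while 77.2% of all genes tested passed the same threshold, an adjusted p under 0.05 in edgeR's quasi-likelihood test with Benjamini-Hochberg adjustment. By direction these were 41.7% higher and 35.6% lower. In clone 1 5 members rose and 2 fell, beside 75.1% of all genes (39.8% higher, 35.3% lower). With DESeq2 or with RLE size factors in edgeR 6 rose and 0 fell in clone 1, and in control DESeq2 gave 5 higher and 1 lower. In clone 2 5 rose and 3 fell, beside 79.5% (42.5% higher, 37% lower), so the members changed about as often as genes at large. Their median log2 fold change was 0.49 in control, 0.3 in clone 1 and 0.54 in clone 2, beside 0.1, 0.08 and 0.11 for all genes. In bulk RNA fewer cells of a type and less RNA per cell cannot be told apart.

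Among the activators, Elf4 (chromosome X, 48411046 to 48463132, minus strand) encodes a factor best known from lymphocytes and from innate immune genes. It was at 15.9 and 13.6 CPM in the 2D control libraries, 15.7 and 13.2 for clone 1, and 15.4 and 14.3 for clone 2. In 3D it stood at 61 and 61.9, 56.5 and 58.4, and 54.4 and 57.3 CPM. All 6 libraries in 3D lay above all 6 in 2D, with little spread between genotypes. The log2 fold change of Elf4 was 2.06 ± 0.09 (SE) in control (adjusted p = 7.8e-17), 1.99 ± 0.1 in clone 1 and 1.91 ± 0.09 in clone 2. The median of the genes tested on chromosome X was 0.1 in control, and the 20 nearest genes tested had a median of 0.41, both far below the value of Elf4.

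Ets2 (chromosome 16, 95702075 to 95721051, plus strand), a close relative of Ets1 that ERK phosphorylates, was at 59.4 and 69.4 CPM in the 2D control libraries, 34.9 and 39 for clone 1, and 54.9 and 58.3 for clone 2. In 3D the values were 114 and 111, 72.8 and 69.3, and 111 and 109 CPM. Each genotype was higher in 3D than in 2D, and clone 1 was lowest in both formats. Ets2 rose by a log2 fold change of 0.8 ± 0.07 in control (adjusted p = 6.3e-11), 0.94 ± 0.08 in clone 1 and 0.96 ± 0.07 in clone 2.

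Ets1 (chromosome 9, 32636221 to 32757820, plus strand), the founding member of the family, went the other way. The 2D libraries had 440 and 418 CPM for control, 353 and 351 for clone 1, and 357 and 357 for clone 2. In 3D it was at 291 and 290, 319 and 309, and 256 and 256 CPM. All 3D libraries lay below all 2D libraries, and the order of control and clone 1 was opposite in the 2 formats. Ets1 fell by 0.56 ± 0.05 on the log2 scale in control cells (adjusted p = 5.6e-11). It fell by 0.48 ± 0.05 in clone 2 cells (adjusted p = 1.2e-09), and clone 1 had the smallest fall, by 0.16 ± 0.05 (adjusted p = 0.0039). The call of Ets1 in clone 1 was lost with DESeq2 (-0.09, adjusted p = 0.07), with RLE size factors in edgeR (-0.09, adjusted p = 0.089) and without clone 1 replicate 2 in 3D (-0.13, adjusted p = 0.056).

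Gabpa (chromosome 16, 84834925 to 84863779, plus strand) encodes the DNA-binding subunit of GABP, a regulator of nuclear genes for mitochondria. Its 2D libraries had 101 and 112 CPM for control, 81.6 and 86.4 for clone 1, and 91.6 and 84.2 for clone 2. In 3D they were 95.4 and 90.7, 77.9 and 73.6, and 74 and 73.5 CPM. The fall was small in each genotype, though the libraries of the formats did not overlap within a genotype. Gabpa fell by 0.2 ± 0.06 in control (adjusted p = 0.007). It fell by 0.15 ± 0.07 in clone 1 (adjusted p = 0.046), and the fall of clone 2, by 0.26 ± 0.07, had an adjusted p of 8.8e-04. Of the 3 calls of Gabpa only that in clone 2 held in all 18 alternatives. The call in control ended without its replicate 2 on plastic (-0.12, adjusted p = 0.15) or in gels (-0.14, adjusted p = 0.14), and that in clone 1 held in 6 of 18. In clone 1 the call ended without any single 3D library (adjusted p of 0.058 to 0.3) and without clone 1 replicate 2 in 2D (-0.11, adjusted p = 0.25). Exons of Atp5j, on the opposite strand, cover 6.98% of the exon length of Gabpa, the strand setting of the counting is not stated, and Atp5j itself fell by 0.87 ± 0.08 in control, so the value of Gabpa is uncertain in part.

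Elf1 (chromosome 14, 79481194 to 79582494, plus strand), a widely expressed activator, was the most even member. It was at 104 and 110 CPM in the 2D control libraries, 105 and 95.5 for clone 1, and 120 and 128 for clone 2. In 3D the values were 104 and 102, 110 and 106, and 113 and 109 CPM. Its log2 change was -0.05 ± 0.06 in control (adjusted p = 0.44) and 0.11 ± 0.06 in clone 1 (adjusted p = 0.11), with opposite signs. In clone 1 Elf1 passed as higher in 4 of 18 alternatives, among them DESeq2 (0.18, adjusted p = 0.015) and the fit without clone 1 replicate 1 in 2D (0.18, adjusted p = 0.033), and in control it passed as lower with chromosomes centred (-0.19, adjusted p = 0.0076). In clone 2 Elf1 fell by 0.16 ± 0.06 (adjusted p = 0.018), a call that held in 11 of 18 alternatives and was lost without clone 2 replicate 2 in 2D (-0.11, adjusted p = 0.16) or in 3D (-0.11, adjusted p = 0.2). Wbp4 overlaps 4.85% of the exon length of Elf1 on the opposite strand and fell by 0.56 ± 0.07 in control.

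Of the epithelial factors, Elf3 (chromosome 1, 135253575 to 135258568, minus strand) was expressed at a low level. The 2D libraries had 9.09 and 11.5 CPM for control, 12.4 and 10 for clone 1, and 8.57 and 6.47 for clone 2. In 3D it was at 17.1 and 18.2, 20.2 and 20.8, and 12.9 and 11.8 CPM. Within each genotype the 3D libraries were higher, and clone 2 was the lowest genotype in both formats. Elf3 rose by 0.78 ± 0.14 in control (adjusted p = 2e-05), 0.86 ± 0.14 in clone 1 and 0.7 ± 0.15 in clone 2 on the log2 scale. Its 20 nearest genes tested had a median of 0.91 in control, above the value of Elf3, while chromosome 1 as a whole had 0.09. Gm26642 covers 7.31% of the exon length of Elf3 on the opposite strand.

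Ehf (chromosome 2, 103263433 to 103303278, minus strand), the other epithelial factor, had 0 counts in all 6 libraries in 2D, a count that allows up to 0.16 to 0.244 CPM per library (3 counts). In 3D it had 0 and 3 counts for control, 0 and 0 for clone 1, and 7 and 7 for clone 2. These levels, at most 0.255 CPM, did not pass the filter on low counts, and the 3D libraries were deeper than the 2D libraries. With no filter, Ehf passed as higher in clone 2 than in clone 1 in 3D (adjusted p = 0.018) and in 3D than in 2D in clone 2 (adjusted p = 0.039), in both cases from 7 and 7 counts against 0 and 0, and in no other of the 11 comparisons. The floors cover counting error only.

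Among the repressors, Etv6 (chromosome 6, 134035700 to 134270158, plus strand) encodes a factor that assembles polymers through its pointed domain. It was at 29.4 and 27.6 CPM in the 2D control libraries, 26.6 and 17.3 for clone 1, and 34 and 30.1 for clone 2. In 3D the values were 63.9 and 58.6, 43.3 and 45.9, and 69.3 and 63 CPM. All 3D libraries lay above all 2D libraries, with clone 1 lowest in each format. Etv6 rose by 1.1 ± 0.11 on the log2 scale in control (adjusted p = 8.3e-10), 1.01 ± 0.12 in clone 1 and 1.04 ± 0.11 in clone 2.

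Elk3 (chromosome 10, 93247414 to 93311135, minus strand), a partner of SRF in the ternary complex, was at 137 and 137 CPM in the 2D control libraries, 167 and 176 for clone 1, and 138 and 140 for clone 2. In 3D it was at 188 and 196, 214 and 210, and 203 and 202 CPM. Clone 1 was the highest genotype in each format. Elk3 rose by 0.49 ± 0.05 in control (adjusted p = 3.7e-09), 0.3 ± 0.05 in clone 1 and 0.54 ± 0.05 in clone 2 on the log2 scale. Cdk17 covers 6.95% of its exon length on the opposite strand and rose by 0.19 ± 0.07 in control.

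Erf (chromosome 7, 25242561 to 25250761, minus strand) encodes a repressor that leaves the nucleus when ERK phosphorylates it. It was at 62.2 and 60.2 CPM in the 2D control libraries, 69.8 and 69.3 for clone 1, and 56.5 and 48.7 for clone 2. In 3D it was at 49.6 and 57.8, 63.2 and 61.2, and 47.3 and 46.9 CPM. Within each genotype both 3D libraries were lower than both 2D libraries, by the widest margin in clone 1. Erf fell by 0.19 ± 0.08 in control (adjusted p = 0.032). Its values of -0.16 ± 0.08 in clone 1 (adjusted p = 0.061) and -0.16 ± 0.08 in clone 2 (adjusted p = 0.06) did not pass, and passed as lower with chromosomes centred (adjusted p of 0.0031 and 0.015). The call of Erf in control held in 10 of 18 alternatives. It ended without control replicate 1 on plastic (-0.16, adjusted p = 0.11) or in gels (-0.06, adjusted p = 0.59), and without clone 1 replicate 1 (adjusted p = 0.076) or clone 2 replicate 1 or 2 (adjusted p of 0.052 and 0.079) in 3D.

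**Figure D2:**
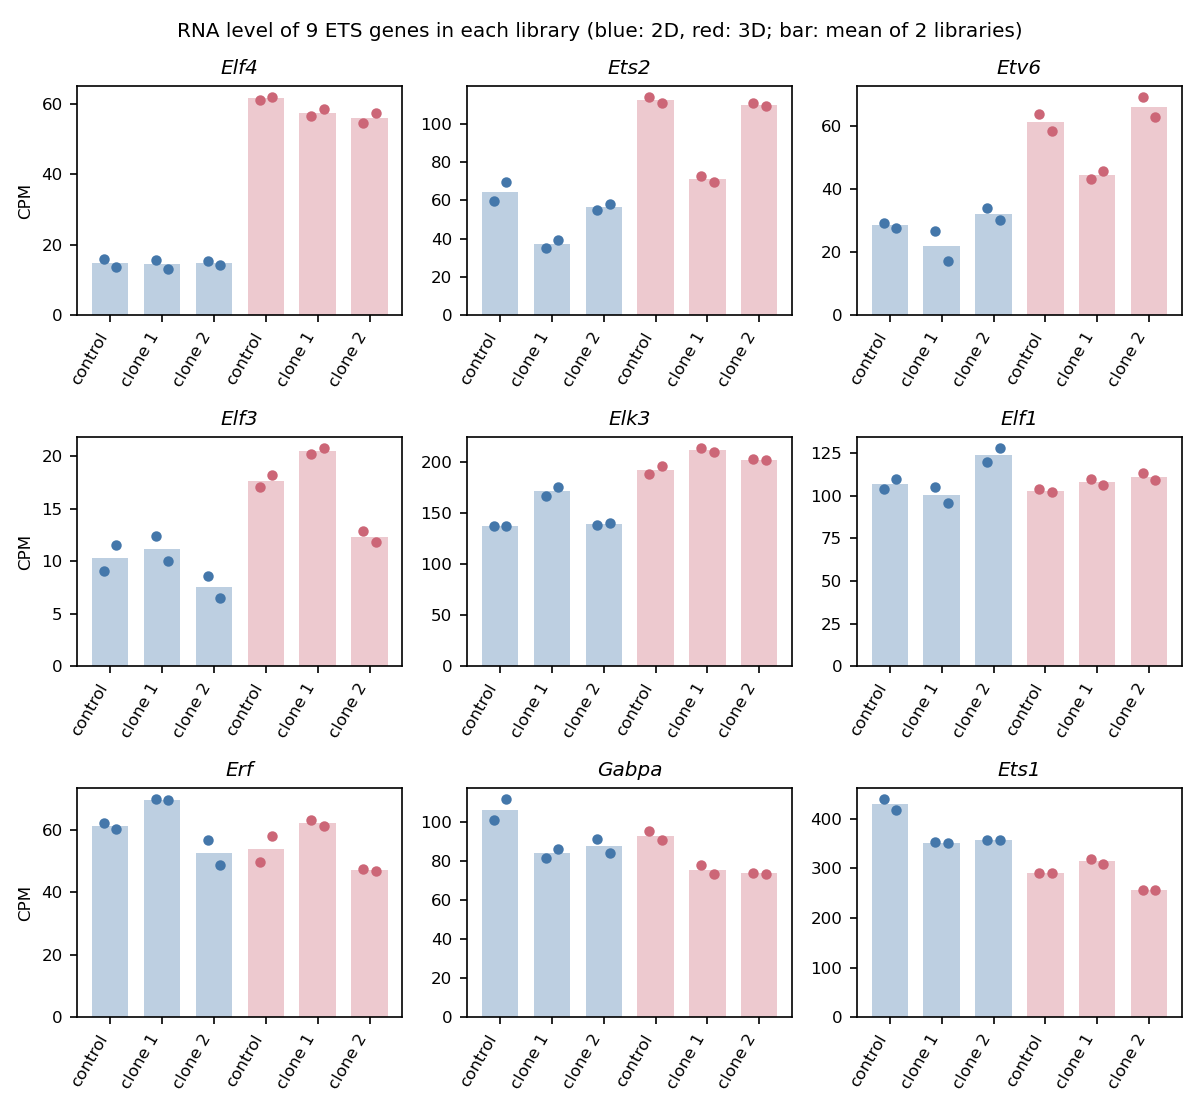
CPM of the 9 members tested in each library, as points, with bars for the mean of the 2 libraries of a group, blue for 2D and red for 3D. Elf4 is at 13.2 to 15.9 CPM in 2D and 54.4 to 61.9 in 3D in all genotypes, while Ets2 and Etv6 are lowest in clone 1 in both formats.

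**Figure D3:**
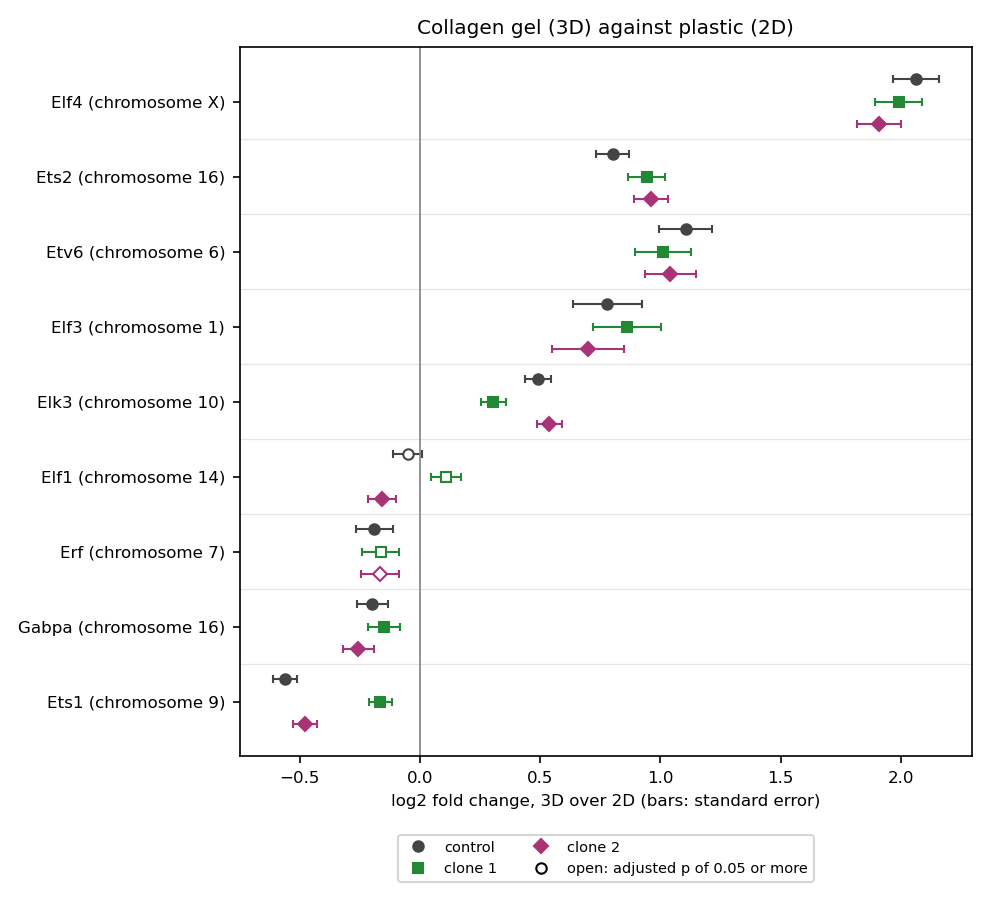
Log2 fold change of 3D over 2D for each member in control (circles), clone 1 (squares) and clone 2 (diamonds), with bars for the standard error and open symbols where the adjusted p was 0.05 or more. Elf4 is near 2 in all 3 genotypes, and Ets1 in clone 1, at -0.16, stands apart from control at -0.56.

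Clone 1 against control asks which ETS genes differ where Etv4 was targeted, in a comparison of 1 clone with a pool. In 2D, Ets2, Etv6, Gabpa and Ets1 fell and Elk3 rose, 5 of 9 members beside 39.8% of all genes tested (19.8% higher, 20% lower). In 3D, Ets2, Etv6 and Gabpa fell and Elk3 and Erf rose, 5 of 9 beside 45.1% (22% higher, 23% lower). The median log2 fold change of the members was -0.09 in 2D and 0.07 in 3D, beside 0 for all genes in each. Of the 9 members 55.6% passed in each format, and the difference of this share from that of genes at large was not tested. In 3D the count was 3 without control replicate 1 or clone 1 replicate 1 of that format.

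Ets2 changed most. It fell by 0.81 ± 0.08 (log2) in clone 1 on plastic (adjusted p = 1.4e-08), to 57.2% of control, and, in 3D, by 0.66 ± 0.07 (adjusted p = 6.2e-09), to 63.2%. Both libraries of clone 1 lay below both of control in each format. Chromosome 16 as a whole was low in that clone: the median of its tested genes was -0.35 on plastic and -0.32 in gels. With each chromosome centred on its own median, Ets2 still passed, at -0.42 on plastic (adjusted p = 2e-04) and -0.33 in gels (adjusted p = 1.7e-04), the smallest changes in any of the 19 alternatives. Gabpa, on the same chromosome, fell by 0.35 ± 0.07 in 2D (adjusted p = 1.7e-04) and, in 3D, by 0.3 ± 0.06 (adjusted p = 3.2e-04), as far as its chromosome. Centred, Gabpa was at 0.04 on plastic (adjusted p = 0.66) and 0.03 in gels (adjusted p = 0.72), so its call ended and its sign turned.

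Among the repressors in clone 1, Etv6 fell by 0.46 ± 0.1 in 3D (adjusted p = 4.1e-04), where chromosome 6 had a median of -0.09, and this call held in all 19 alternatives. In 2D Etv6 fell by 0.36 ± 0.13 (adjusted p = 0.028), and the libraries of clone 1 differed, at 26.6 and 17.3 CPM. Without clone 1 replicate 2 the value of Etv6 was -0.09 (adjusted p = 0.6), and without control replicate 1 it was -0.32 (adjusted p = 0.11). It also missed the threshold with chromosomes centred (-0.22, adjusted p = 0.22) and with the 2D libraries alone (adjusted p = 0.054). Elk3 rose by 0.33 ± 0.06 in 2D (adjusted p = 2.8e-05) and, in 3D, by 0.14 ± 0.05 (adjusted p = 0.025), against chromosome 10 medians of -0.04 and -0.09. The 2D call of Elk3 held in all 19 alternatives. Its 3D call was lost without control replicate 1 (0.1, adjusted p = 0.27), control replicate 2 (adjusted p = 0.061), clone 1 replicate 1 (adjusted p = 0.19) or clone 2 replicate 2 (adjusted p = 0.066) of that format. Erf had 0.19 ± 0.08 in 2D (adjusted p = 0.073) and rose by 0.21 ± 0.07 in 3D (adjusted p = 0.022), where chromosome 7 had a median of 0.15. That call of Erf was lost without control replicate 1 (0.09, adjusted p = 0.47), without clone 1 replicate 1 (adjusted p = 0.17) and with chromosomes centred (0.12, adjusted p = 0.23).

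Ets1 fell by 0.29 ± 0.05 in clone 1 in 2D (adjusted p = 4.1e-05), with a chromosome 9 median of -0.14, and centred it was at -0.1 (adjusted p = 0.15). In 3D Ets1 was at 0.11 ± 0.05 (adjusted p = 0.059), with both clone 1 libraries above both control libraries. It passed as higher in 8 of the 19 alternatives there, DESeq2 among them (0.15, adjusted p = 0.0036). Elf1, Elf3 and Elf4 did not pass in clone 1 in either format. Elf4 was at -0.02 ± 0.12 in 2D and -0.1 ± 0.08 in 3D, and Elf3 at 0.13 ± 0.16 and 0.21 ± 0.12. With chromosomes centred, Elf1 passed as lower in 2D (-0.23, adjusted p = 0.0081) and Elf3 as higher in 3D (0.31, adjusted p = 0.045).

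Clone 2 was compared with the same control libraries as clone 1, so the 2 comparisons are not independent. In 2D, Ets1, Gabpa, Elf3 and Erf fell and Elf1 rose, 5 of 9 members beside 33.9% of all genes (18.9% higher, 15% lower). In 3D, Ets1, Gabpa and Elf3 fell and 0 members rose, 3 of 9 beside 29.2% of all genes (11.9% higher, 17.4% lower). At an unadjusted p under 0.05, 0 members were higher and 4 lower in 3D in edgeR, and DESeq2 gave 0 higher and 3 lower. With the 3D libraries alone 6 members passed, with Elf1 higher (0.11, adjusted p = 0.038) and Elf4 (-0.14, adjusted p = 0.014) and Erf (-0.19, adjusted p = 0.0014) lower in addition. The median of the members was -0.19 in 2D and -0.14 in 3D, beside 0.02 and 0 for all genes. The 2D count was 2 without clone 2 replicate 2 in 2D, and 3 without control replicate 2 in 2D or any single 3D library other than clone 1 replicate 2. The 3D count was 1 without clone 2 replicate 2 in 3D.

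Gabpa fell by 0.28 ± 0.07 in clone 2 in 2D (adjusted p = 0.0018) and, in 3D, by 0.34 ± 0.06 (adjusted p = 1.6e-04), to 79.3% of control. Chromosome 16 was nearer 0 in this clone than in clone 1, with medians of -0.11 and -0.08. The 3D call of Gabpa held in all 19 alternatives, and the 2D call ended with chromosomes centred (-0.13, adjusted p = 0.13). Atp5j, which overlaps Gabpa, was at 0.12 ± 0.07 in 2D and -0.17 ± 0.08 in 3D and passed in neither. Ets1 fell by 0.27 ± 0.05 in 2D (adjusted p = 1.4e-04), kept in all 19 alternatives, and, in 3D, by 0.18 ± 0.05 (adjusted p = 0.0052). In 3D the call of Ets1 was lost without clone 2 replicate 1 (adjusted p = 0.054) or 2 (adjusted p = 0.058), at an unchanged -0.18.

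Elf3 fell by 0.43 ± 0.17 in clone 2 in 2D (adjusted p = 0.045) and, in 3D, by 0.52 ± 0.13 (adjusted p = 0.0026), to 70% of control. Chromosome 1 as a whole was low in clone 2, where the median of its tested genes was -0.29 on plastic and -0.53 in gels, the latter as far as Elf3 itself. Centred, Elf3 was at -0.09 on plastic (adjusted p = 0.75) and 0.03 in gels (adjusted p = 0.91), so both calls ended. The 3D call of Elf3 was also lost without control replicate 2 (adjusted p = 0.055) or clone 2 replicate 2 (adjusted p = 0.064). Its 2D call held in 8 of 19 alternatives, and was lost without control replicate 2 (-0.25, adjusted p = 0.37), without clone 2 replicate 2 (-0.26, adjusted p = 0.31) and without any single 3D library other than clone 1 replicate 2 (adjusted p of 0.058 to 0.068).

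Elf1 rose by 0.22 ± 0.06 in clone 2 in 2D (adjusted p = 0.0076) and was at 0.11 ± 0.06 in 3D (adjusted p = 0.16). The rise was lost without control replicate 1 (0.17, adjusted p = 0.069) or clone 2 replicate 2 (0.17, adjusted p = 0.081). With the 2D libraries alone the rise of Elf1 was lost too (0.18, adjusted p = 0.092). Wbp4, which overlaps Elf1, rose by 0.39 ± 0.07 in clone 2 in 2D. Erf fell by 0.21 ± 0.08 in 2D (adjusted p = 0.046) and was at -0.19 ± 0.08 in 3D (adjusted p = 0.064), where it passed with the libraries of that format alone (adjusted p = 0.0014), while its chromosome had medians of 0.12 and 0.02. The 2D call of Erf held in 10 of 19 alternatives and was lost without either control library (adjusted p of 0.14 and 0.067), without clone 2 replicate 2 (-0.12, adjusted p = 0.39) and without any single 3D library other than clone 1 replicate 2 (adjusted p of 0.052 to 0.075). Ets2, so low in clone 1, had values of -0.19 ± 0.08 on plastic (adjusted p = 0.055) and -0.03 ± 0.06 in gels (adjusted p = 0.78) for clone 2. It passed as lower in 2D in 8 of 19 alternatives, such as without control replicate 1 (-0.3, adjusted p = 0.0055).

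**Figure D4:**
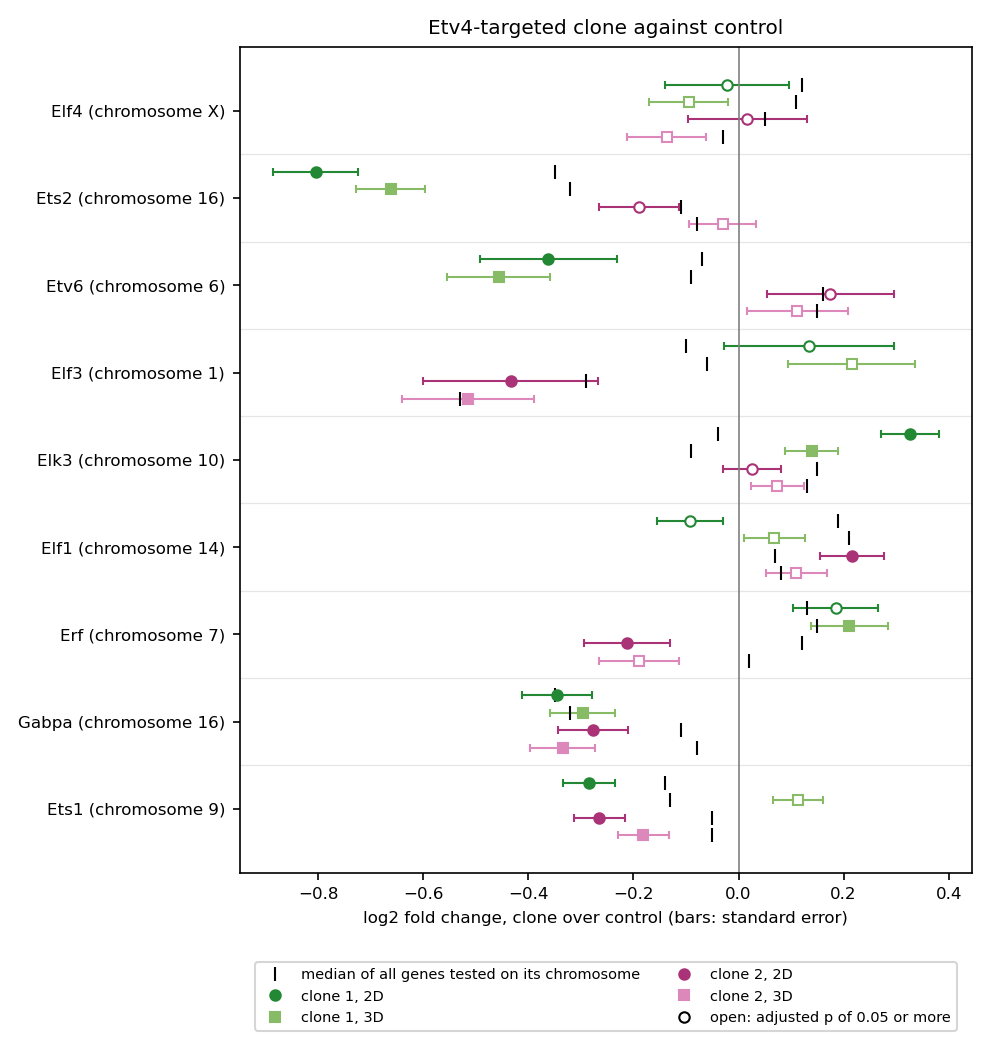
Log2 fold change over control for each member in clone 1 (green) and clone 2 (purple), in 2D (circles) and 3D (squares), with bars for the standard error, open symbols where the adjusted p was 0.05 or more, and black ticks for the median of all genes tested on the same chromosome. Ets2 in clone 1 lies beyond its chromosome median of -0.35 in 2D, while Gabpa in clone 1 and Elf3 in clone 2 in 3D lie on theirs.

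The clones were also compared with each other, without the control libraries. In 2D 3 members were higher and 3 lower in clone 2 than in clone 1, 6 of 9 beside 41.6% of all genes (23.2% higher, 18.4% lower). In 3D 2 were higher and 3 lower, 5 of 9 beside 54.9% (26.4% higher, 28.5% lower). Ets2 was 1.53-fold higher in clone 2 in 2D (log2 0.62 ± 0.08, adjusted p = 1e-06) and 1.55-fold higher in 3D (0.63 ± 0.07, adjusted p = 6.8e-09), and both calls held in all 19 alternatives. Erf was lower in clone 2 with -0.4 ± 0.08 on plastic (adjusted p = 2.8e-04) and -0.4 ± 0.08 in gels (adjusted p = 5.8e-05), also in all 19. Etv6 was higher by 0.54 ± 0.13 on plastic (adjusted p = 0.0011) and 0.57 ± 0.1 in gels (adjusted p = 1.8e-05), and chromosome 6 by medians of 0.27 and 0.25. Centred, Etv6 was at 0.24 (adjusted p = 0.14) and 0.21 (adjusted p = 0.079), and without clone 1 replicate 2 in 2D at 0.27 (adjusted p = 0.076). Elf3 was lower by -0.57 ± 0.17 (adjusted p = 0.0071) and -0.73 ± 0.12 (adjusted p = 1.6e-05), and centred at -0.34 (adjusted p = 0.11) and -0.28 (adjusted p = 0.062). In 2D the call of Elf3 was lost without clone 1 replicate 1 (adjusted p = 0.13) or clone 2 replicate 2 (adjusted p = 0.089). Elk3 was lower in clone 2 in 2D (-0.3 ± 0.05, adjusted p = 6.5e-05) and at -0.07 ± 0.05 in 3D (adjusted p = 0.28). Elf1 was higher in 2D (0.31 ± 0.06, adjusted p = 2.2e-04) and Ets1 lower in 3D (-0.29 ± 0.05, adjusted p = 1e-05). Gabpa did not pass in either format, with 0.07 ± 0.07 and -0.04 ± 0.06. With chromosomes centred it was lower in clone 2 in both, at -0.17 (adjusted p = 0.039) and -0.33 (adjusted p = 5.2e-05), and Elk3 in 3D was lower too, at -0.36 (adjusted p = 2.2e-06).

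Whether the difference of a clone from control itself changed with the format was tested as an interaction, the difference in 3D minus that in 2D. Ets1 in clone 1 passed, with 0.4 ± 0.07 (adjusted p = 4.1e-04), and it was the only member of 9 to do so, beside 7.02% of all genes (3.57% higher, 3.44% lower). The value comes from 0.821 times the control level in 2D and 1.08 times in 3D, and it was 0.36 to 0.45 over 18 alternatives, past the threshold in each. The genes of chromosome 9 had an interaction median of 0.03. Elk3 in clone 1 was at -0.19 ± 0.07 (adjusted p = 0.13). In clone 2, 0 of 9 members passed in edgeR, beside 22.2% of all genes (7.43% higher, 14.8% lower), with 0 at an unadjusted p under 0.05 and 0 in DESeq2. Ets1 was there at 0.08 ± 0.07 (adjusted p = 0.43).

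Of the other ETS genes outside the PEA3 group, 4 were tested: Elf2, Elk1, Elk4 and Etv3. Elk4, like Elk3 a ternary complex factor, was at 60.8 and 60 CPM in control in 2D and 182 and 183 in 3D, and rose 3.02-fold (log2 1.59 ± 0.06, adjusted p = 1.5e-18). In clone 2 it was at 134 and 133 CPM in 3D, and fell by 0.45 ± 0.05 against control (adjusted p = 3.3e-07), beside a chromosome 1 median of -0.53. Elk1, the third ternary complex factor, rose by 0.54 ± 0.12 in control in 3D (adjusted p = 1.8e-04), so all of Elk1, Elk3 and Elk4 rose there. Etv3, a repressor, rose by 0.41 ± 0.08 (adjusted p = 7.7e-05), and Elf2 was at -0.02 ± 0.06 (adjusted p = 0.81). Among the PEA3 genes Etv1 rose 5.11-fold in control in 3D, Etv5 1.55-fold and Etv4 1.26-fold.

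Genes known to work with ETS factors were counted by list. Whether any list follows the level of a member was not tested. Of 12 early targets of SRF and the ternary complex, 9 were higher and 2 lower in 3D than in 2D in control cells, with a median log2 fold change of 4.28 beside 0.1 for all genes, of which 41.7% were higher and 35.6% lower. Egr1, an early growth response factor, was at 1.12 and 0.877 CPM in 2D and 570 and 592 in 3D, and Fos, an AP-1 subunit, at 0.419 and 1.21 and at 375 and 383. Junb and Ier2 of this list passed the interaction of clone 1, at 0.62 ± 0.08 (adjusted p = 2.8e-06) and 1.02 ± 0.13 (adjusted p = 3.6e-06). In that interaction 4 of 12 were higher and 0 lower, beside 3.57% and 3.44% of all genes. These genes respond to handling within minutes in many cells, and the collagenase step was taken in 3D alone, so its part cannot be told apart from that of the gel.

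Of 17 genes linked to GABP, mostly for mitochondria, 2 were higher and 11 lower in 3D in control cells, with a median of -0.86 beside 0.1 for all genes, of which 41.7% were higher and 35.6% lower. Cox4i1, a subunit of cytochrome oxidase, fell by 1.57 ± 0.06 and Ndufs1, a subunit of complex I, fell by 1.52 ± 0.05, while Gabpa itself fell by 0.2. In clone 2 against control in 3D 0 of the 17 were higher and 7 lower in edgeR, with a median of -0.11, beside 11.9% and 17.4% of all genes. In clone 2 in 2D, where Gabpa was lower too, 4 were higher and 5 lower, beside 18.9% and 15% of all genes. Their median there was 0.02. Clone 1 had 2 higher and 6 lower in 2D, beside 19.8% and 20% of all genes. In 3D clone 1 had 1 higher and 4 lower, beside 22% and 23%. Gabpb1, which encodes a partner subunit of Gabpa, was at 30.5 and 30.3 CPM in control in 2D and 42.1 and 41.8 in 3D. Gabpb2, the other, was at 114 and 129 and at 117 and 118 CPM.

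Of 29 partners and regulators of ETS factors tested, 16 were higher and 10 lower in 3D in control cells, with a median of 0.23 beside 0.1 for all genes, of which 41.7% were higher and 35.6% lower. Jun, which binds DNA with ETS factors, rose by 3.24 ± 0.06, and Mapk3, which encodes ERK1, rose from 7.83 and 7.35 CPM to 78.5 and 82.1. Sp100, a nuclear body protein that binds Ets1, was at 5.73 and 5.73 CPM in the 2D control libraries, 0.559 and 0.482 for clone 1, and 2.71 and 2.42 for clone 2. In 3D Sp100 was at 16.5 and 15.8, 1.63 and 1.68, and 11.2 and 10.5 CPM, lowest in clone 1 in both formats. Mice carry a multicopy relative of Sp100 on chromosome 1, so its counts are uncertain in part.

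Of 25 epithelial genes linked to Elf3 and Ehf, 13 were higher and 9 lower in 3D in control cells, with a median of 0.31 beside 0.1 for all genes, of which 41.7% were higher and 35.6% lower. Klf5, an epithelial transcription factor, rose by 3.12 ± 0.06 and Cldn3, a tight junction claudin, fell by 1.25 ± 0.08. In clone 1 in 2D 8 were higher and 9 lower, beside 19.8% and 20% of all genes. Cldn7, another claudin, fell by 6.17 ± 0.16 in that comparison and Rab25, an epithelial GTPase, fell by 5.76 ± 0.3, while Elf3 did not pass. In clone 2 in 3D, where Elf3 was low, 10 were higher and 6 lower, beside 11.9% and 17.4% of all genes. The median of the list was 0.14.

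Of 16 invasion genes known as ETS targets, 12 were higher and 4 lower in 3D in control cells, with a median of 0.79 beside 0.1 for all genes, of which 77.2% passed. In the interaction of clone 1, 7 were higher and 1 lower, beside 3.57% and 3.44% of all genes. In that of clone 2, 4 were higher and 7 lower, beside 7.43% and 14.8% of all genes. In the interaction of clone 1 Mmp3, a secreted matrix protease, was at 3.42 ± 0.13 (adjusted p = 4.1e-16). Mmp10, a related protease, was at 3.54 ± 0.29 (adjusted p = 4e-09) in that of clone 1. There Ptgs2, an enzyme of prostaglandin synthesis, was at 1.35 ± 0.08 (adjusted p = 3e-12). Plau, the urokinase plasminogen activator, was at 0.87 ± 0.09 (adjusted p = 1.5e-07), again in clone 1. Ptgs2 also belongs to the epithelial list. In clone 2 against control in 3D 1 of the 16 was higher and 12 lower, beside 11.9% and 17.4% of all genes. Their median was -0.79.

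For each member the genes of most similar pattern were taken as those with the highest correlation of log2 CPM over the 12 libraries after centring within each format, among 9481 genes with a mean of at least 5 CPM. The libraries form 6 groups, so these values mostly describe differences between genotypes, and they carry no test. Ets2 was most like Il1rap (r = 0.995) and Cggbp1 (r = 0.988), both also on chromosome 16. Ets1 was most like Bbs9 (r = 0.976), on chromosome 9 as well, and Tns4 (r = 0.975). Etv6 was nearest to Tlcd1 (r = 0.972) and Cbl (r = 0.969), Elk3 to Rapgef1 (r = 0.981), Elf3 to Ldlrad3 (r = 0.971), Elf1 to Map3k7 (r = 0.968) and Erf to Lpcat4 (r = 0.971). Elf4, which differed little between genotypes, had the weakest nearest gene, Upf3a (r = 0.859).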

How the data were processed

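Polyadenylated RNA of 12 libraries in 6 groups was sequenced from TruSeq Stranded mRNA libraries, per the labels' protocols. The authors deposited whole-number counts for 31017 gene symbols, with 2D and 3D libraries in separate tables. Per the submitters' processing notes, genome build mm10 was used with Cell Ranger 3.0.0, featureCounts, FastQC 0.11.9, R 4.1.1 and STAR 2.7.9a. Their roles, the strand setting and the annotation are not given in the sources used here.

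The deposited counts were combined on gene symbol into 1 matrix for edgeR 4.0.16 (R 4.3.3): filterByExpr, TMM scaling, a mean for each of the 6 groups and quasi-likelihood tests, two-sided, with Benjamini-Hochberg adjustment over 13763 genes and a threshold of 0.05. The fit was tested on simulated counts. It left 6 degrees of freedom, and its biological coefficient of variation was 4.51%. In 11 comparisons each clone was set against control and against the other clone in each format, 3D against 2D in each genotype, and the clone by format interaction was taken. Gene lengths, positions and overlaps came from GENCODE M21, in which 30416 of 31017 symbols (98.06%) had a single gene. A ± gives the standard error, and CPM are counts per M of TMM-scaled library size. DESeq2 1.42.0, relative log expression (RLE) size factors, no filter, a replicate block, centred chromosomes, each format alone, both abundant transcripts left out and each library left out were tried as alternatives. The fit of each format alone does not apply to comparisons across formats, which have 18 alternatives in place of 19. Every member is named in the text, of each list up to 4 genes with the smallest p in a comparison (Gabpb1 and Gabpb2, the partner subunits of Gabpa, were added after their values were seen), and of the genes of similar pattern at most 2 per member. Members and lists were chosen with earlier results of these data known. The same replicate numbers did not pair the samples. Values of a few genes are not reported here.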

Additional observations from a re-analysis of the deposited data

Results flagged for a closer look

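In clone 1 the difference of Ets1 from control changed with the culture format, with an interaction of 0.398 on the log2 scale. It was found by the test of the difference itself, edgeR's quasi-likelihood test (adjusted p = 4.1e-04). Both clone 1 libraries lay below both control libraries in 2D, at 353 and 351 against 440 and 418 CPM, and above both in 3D, at 319 and 309 against 291 and 290 CPM. Taken alone, the 3D difference did not pass (0.11, adjusted p = 0.059). The 2D fall did not pass with chromosomes centred (-0.1, adjusted p = 0.15).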

How the results depend on the processing

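Of 1836 values of members under alternatives, 1709 kept their side of the threshold, 81 fell short of it, 42 passed newly and 4 turned in direction with at least 1 value called. Changes of sign between values that both missed the threshold were counted among the 1709. Of 53 called values 32 were kept in every alternative. With chromosomes centred, Gabpa in clone 1 against control had 0.043 on plastic and 0.032 in gels, Elf3 in clone 2 against control had 0.026 in gels, Gabpa in clone 2 against clone 1 had -0.173 on plastic, and Etv4, a reference gene, had -0.155 in clone 2 against clone 1 in gels. These values follow from the construction of that alternative, which takes the median of each chromosome away. The counts of members called moved by over 1.5 times in these settings, replicates aside: clone 1 against control in 2D to 3 with chromosomes centred, clone 2 against control in 2D to 3 with DESeq2, 3 with chromosomes centred and 3 with the format alone, and clone 2 against control in 3D to 6 with the format alone, and the cause of the last 2 was not tested. Leaving out 1 library at a time gave 4 to 5 members called for clone 1 against control in 2D, 2 to 6 for clone 2 against control in 2D, 3 to 6 for clone 1 against control in 3D and 1 to 4 for clone 2 against control in 3D. It gave 5 to 6 and 5 to 5 for clone 2 against clone 1 in 2D and 3D, 7 to 8, 5 to 8 and 7 to 8 for 3D against 2D in control, clone 1 and clone 2, and 1 to 1 and 0 to 0 for the interactions of clone 1 and clone 2. Ets1 over Elk3 in 2D was 2.59 in control, 1.7 in clone 1 and 2.13 in clone 2 by longest transcript, and 2.92, 1.91 and 2.38 by coding length. In 3D it turned to 1.26, 1.23 and 1.05 by longest transcript and 1.41, 1.38 and 1.18 by coding length.

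Replicate numbers did not pair the samples, with correlations of same-numbered libraries of -0.045 to 0.022. With the replicate number as a block, 5 members were called for each clone against control in 2D, 5 and 3 in 3D, and 7, 7 and 8 for 3D against 2D in control, clone 1 and clone 2.

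Elf3 was at 6.47 to 12.4 CPM in 2D, where depth and 2 libraries per group limit what can be seen, and Ehf, at 7 counts or fewer per library, was tested with no filter alone.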
